A study of Homo sapiens with 8 samples.

Results

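The glucocorticoid receptor gene NR3C1 and 8 of its classical target genes, TSC22D3, FKBP5, SGK1, DUSP1, KLF9, TAT, ZFP36 and ERRFI1, were examined in RNA-seq of HuH7 cells, a human hepatoma line. The members were taken from the count table by symbol, and all 9 were found among its 15767 genes and among the 12910 genes with enough counts to be tested. They had been selected on earlier results of the same comparison, in which TSC22D3 stood out, so their differences are given as a description and without p-values. The study asked how ginsenoside Rk2, a triterpenoid saponin of steamed ginseng, acts on liver cells after oxygen and glucose deprivation followed by reoxygenation. In all libraries the cells were wild type and had gone through 6 h at 1% oxygen without glucose, then 6 h of normoxia. During reoxygenation the medium contained either DMSO (I/R+DMSO, n = 4) or 20 µM Rk2 (I/R+Rk2, n = 4). The growth medium contained serum, and the labels of both groups name no added glucocorticoid. HuH7 is a single tumour line, and the labels do not say whether the 4 libraries of a group came from separate cultures, so the spread between them may be technical.

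Library totals ranged from 16374082 to 30310479 counts, the highest being that of I/R+Rk2 replicate 1, and the lowest rank correlation between libraries of 1 group was 0.986. The hepatoma markers ALB and AFP were abundant in every library (973 to 1046 and 2229 to 2526 FPKM, fragments scaled to transcript length and library size). Of the other hepatoma markers examined, APOB was higher with Rk2 (log2 fold change 0.61, edgeR adjusted p = 0.0124), FGB was lower (-0.27, edgeR adjusted p = 0.0462), and APOA1, TTR, SERPINA1 and HNF4A did not pass. The endothelial genes CDH5 and KDR and the leukocyte gene PTPRC were listed at 0 FPKM in all libraries, and the fibroblast genes COL1A1 and COL3A1 had at most 17 and 31 counts, while the fibroblast marker PDGFRB had 27 to 66. The leukocyte gene CD68 (840 to 1244 counts) and the endothelial gene PECAM1 (149 to 313 counts) were detected in both groups, with a log2 fold change of -0.08 and 0.09 between them. CD14, at 5 to 24 counts, was lower with Rk2 (log2 fold change -1.25, edgeR adjusted p = 0.0430). All libraries are labelled as cultured HuH7 cells, so reads of these genes do not by themselves show that other cell types were present. In bulk RNA, fewer cells expressing a gene and less RNA per cell cannot be told apart.

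The glucocorticoid receptor is a nuclear receptor that rests in the cytoplasm in a complex with HSP90 and immunophilins. On binding cortisol it enters the nucleus, binds palindromic response elements and raises or lowers the transcription of its targets. In liver it drives gluconeogenesis and amino acid catabolism and restrains inflammation. TSC22D3 encodes the glucocorticoid-induced leucine zipper (GILZ), an anti-inflammatory protein, and is also known as a target of FOXO factors.

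Promoter sequences of the members were examined because the targets are grouped by a shared regulator. RefSeq (GRCh38.p14) supplied 20 annotated starts for 8 of the 9 members, with none used for TAT, and the 250 bases before each start were searched on both strands. The full glucocorticoid response element, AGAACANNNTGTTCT, was in none of the 20 windows and in 1 of 35116 windows of all genes (0.00285%). Its arm AGAACA alone was in none of the 20 windows, against 12.4% of all windows. The FOXO letters GTAAACA were found in a window of TSC22D3 and a window of NR3C1, against 2.98% of all windows. The cAMP response element TGACGTCA was found in the DUSP1 window, against 1.65% of all windows. Its shorter core TGACG, which overlaps it, was in 5 of the 20 windows, which belong to 3 members, against 21.2% of all. NR3C1 has 7 of the 20 windows and TSC22D3 has 4, so the windows are not independent and these genes have more chances of a match. The amino acid response core TGATGNAA was in none of the 20, against 3.14% of all. These are matches of letters in short windows, and a window without a match says nothing on elements elsewhere. TSC22D3 has 4 annotated starts; the window at chrX:107717063-107717312, minus strand, is shown because it holds the FOXO letters. The DUSP1 window, at chr5:172771196-172771445 on the minus strand, is shown for its cAMP response element. The KLF9 window, at chr9:70414658-70414907 on the minus strand, belongs to the other member that was called higher and held none of the motifs. Capitals mark the FOXO letters (read as TGTTTAC on this strand) and the cAMP response element or its core (read as TGACG or CGTCA).
TSC22D3: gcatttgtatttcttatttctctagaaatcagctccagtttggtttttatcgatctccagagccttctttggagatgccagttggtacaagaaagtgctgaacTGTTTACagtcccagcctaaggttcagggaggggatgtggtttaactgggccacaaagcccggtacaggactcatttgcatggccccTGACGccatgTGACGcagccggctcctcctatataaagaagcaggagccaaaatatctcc
DUSP1: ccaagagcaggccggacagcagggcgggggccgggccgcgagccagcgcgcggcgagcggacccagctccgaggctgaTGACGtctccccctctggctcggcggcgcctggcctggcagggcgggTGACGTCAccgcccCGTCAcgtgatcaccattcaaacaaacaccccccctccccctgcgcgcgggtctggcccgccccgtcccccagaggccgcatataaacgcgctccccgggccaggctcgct
KLF9: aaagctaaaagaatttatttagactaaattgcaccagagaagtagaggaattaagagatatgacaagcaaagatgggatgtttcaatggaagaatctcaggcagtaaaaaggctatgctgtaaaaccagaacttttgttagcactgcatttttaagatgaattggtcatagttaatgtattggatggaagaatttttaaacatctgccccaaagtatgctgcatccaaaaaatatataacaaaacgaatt

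Under Rk2, TSC22D3 mRNA was about 2.22-fold higher, KLF9 mRNA was 1.38-fold higher, and the receptor and the other 6 targets differed by far less. Of the 9 members, 2 passed an adjusted p of 0.05, against 18.2% of all tested genes. Both were higher with Rk2 (edgeR's quasi-likelihood test with Benjamini-Hochberg adjustment), as were 11.0% of all tested genes. None passed in the direction of lower expression, where 7.24% of all tested genes did. No member was lower at an unadjusted p below 0.05, against 2110 of the 12910 tested genes. DESeq2 also called 0 members lower, against 1298 of the 12910. Since the members were chosen on this contrast, nothing is read from these counts. The median log2 fold change (log2FC, I/R+Rk2 over I/R+DMSO, given with its standard error, SE) was 0.05 over the members and -0.0021 over all tested genes. In 3 members, TSC22D3, KLF9 and DUSP1, every library of a group was above every library of the other in CPM (counts normalized to library size), as was the case for 28.3% of all tested genes.

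**Figure D1:**
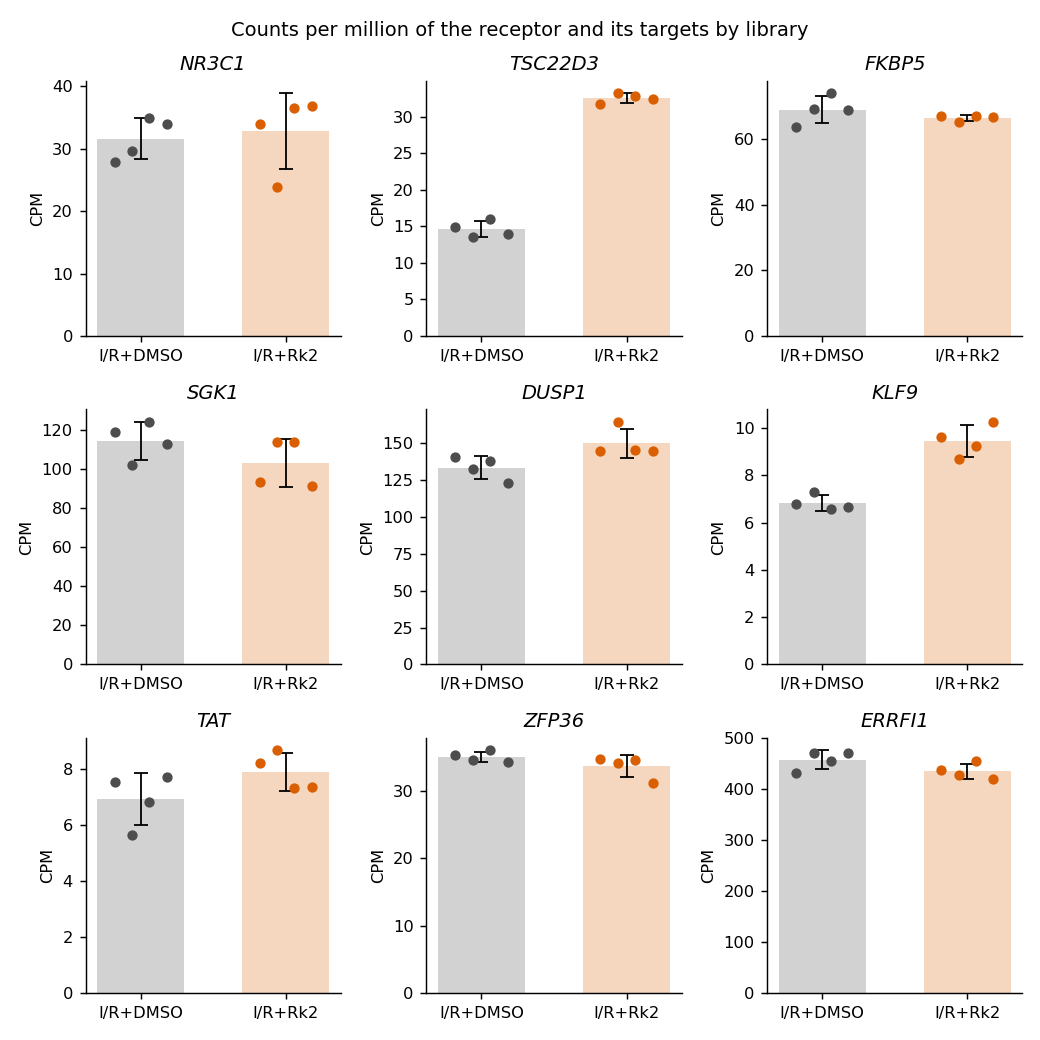
CPM of each member in the 8 libraries, with a panel for each gene. Points are libraries in the order of their replicate numbers, bars are group means starting at 0 and error bars are the SD (n = 4 per group). TSC22D3 lies between 13.6 and 16.04 CPM with DMSO and between 31.7 and 33.2 with Rk2, while the points of NR3C1, FKBP5, SGK1, TAT, ZFP36 and ERRFI1 overlap between the groups.

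The receptor itself, NR3C1 (chr5:143277931-143435512, minus strand, GRCh38), was expressed at a moderate level in every library. Its CPM was 27.9, 29.7, 34.8 and 34.0 in the I/R+DMSO libraries and 33.9, 23.8, 36.6 and 36.7 in the I/R+Rk2 libraries. The groups overlapped, and both the lowest and the highest value came from I/R+Rk2. The means were 31.6 ± 3.34 and 32.8 ± 6.11 CPM (SD, n = 4 each; log2FC 0.05, SE 0.144). That standard error was the widest of the 9 members. The small difference had no stable sign, since it lay between -0.0085 and 0.18 with single libraries left out and was -0.12 after a correction for gene length.

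The deposited FPKM of NR3C1 gave another picture of the same libraries. It was 3.33, 4.42, 4.25 and 5.13 with DMSO and 4.72, 5.76, 4.59 and 5.31 with Rk2. I/R+Rk2 replicate 2 thus had the lowest CPM and the highest FPKM of all 8 libraries. The log2 ratio of CPM to FPKM, centred on the median of each gene and of each library, was -0.77 there and between -0.12 and 0.19 in the other 7. Such a ratio would be nearly constant if both files used the same reads and length. Its range over the libraries was 0.96 for NR3C1, against a median of 0.31 for the 10478 genes with a mean of at least 100 counts, and 8.89% of those genes had a wider range. The ranges of DUSP1, KLF9 and FKBP5 were 0.0021, 0.0071 and 0.014. Those of TAT, ERRFI1, SGK1 and ZFP36 were 0.39, 0.31, 0.11 and 0.096, and all of these but SGK1 had a range wider than the size of their log2 fold change. For TSC22D3 the range was 0.32, small against its difference between the groups. The cause was not tested.

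**Figure D2:**
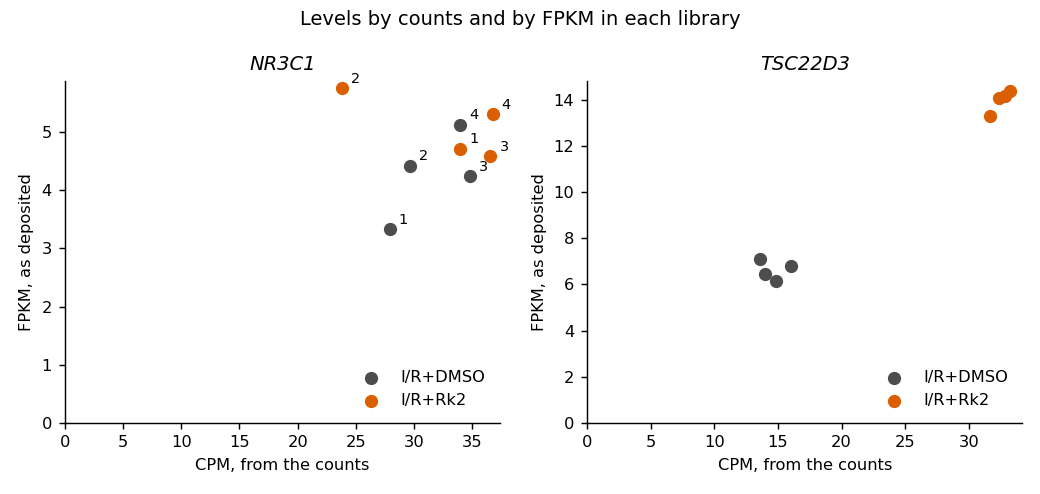
FPKM as deposited against CPM from the counts for NR3C1 (left, points numbered by replicate) and TSC22D3 (right), with a point for each of the 8 libraries. I/R+Rk2 replicate 2 of NR3C1 combines 23.8 CPM with 5.76 FPKM, away from the other libraries, whereas TSC22D3 separates the groups on both axes.

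TSC22D3 (chrX:107713221-107777342, minus strand) showed the largest difference of the members. Its CPM was 14.9, 13.6, 16.04 and 14.0 with DMSO and 31.7, 33.2, 32.9 and 32.4 with Rk2. All 4 I/R+Rk2 libraries lay within a narrow band well above every I/R+DMSO library. The means of 14.6 ± 1.08 and 32.5 ± 0.666 CPM (SD, n = 4 each) gave a log2FC of 1.15 (SE 0.0645). Only 0.751% of tested genes had a higher log2 fold change, and TSC22D3 ranked 98 of 12910. In FPKM its means were 6.63 ± 0.409 and 14.0 ± 0.469 (SD, n = 4 each). The log2 fold change stayed between 0.98 and 1.20 in every alternative analysis. Exons of NCBP2L overlap TSC22D3 on the opposite strand, and the sources used do not say whether counting used strand. The counts are per gene, so the long and short isoforms of TSC22D3 could not be told apart.

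KLF9 (chr9:70384597-70414624, minus strand), a Krüppel-like transcription factor that glucocorticoids induce in many tissues, was the other member above the threshold. Its counts were low, at 6.80, 7.30, 6.56 and 6.66 CPM with DMSO and 9.60, 8.69, 9.26 and 10.3 CPM with Rk2. The lowest Rk2 library was above the highest DMSO library. The means were 6.83 ± 0.329 and 9.46 ± 0.660 CPM (SD, n = 4 each; log2FC 0.47, SE 0.0798). It lay between 0.28 and 0.51 over the alternatives, with 0.32 after the correction for gene length. KLF9 is longer than 88.0% of the tested genes whose length could be derived.

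DUSP1 (chr5:172768090-172771195, minus strand), a phosphatase that inactivates MAP kinases, had 141, 132, 138 and 123 CPM with DMSO and 145, 165, 146 and 145 CPM with Rk2. The groups did not overlap, but the gap between them was narrow and I/R+Rk2 replicate 2 stood above its group. The means were 134 ± 7.86 and 150 ± 9.81 CPM (SD, n = 4 each), and the log2 fold change was 0.17 (SE 0.0610), or 0.12 without that library. DUSP1 was past the threshold only when libraries were scaled by their totals alone and after the gene length correction.

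FKBP5 (chr6:35573585-35728583, minus strand) encodes an immunophilin that binds the receptor complex and lowers its affinity for hormone, and it is among the most sensitive readouts of receptor activity in many cells. Its CPM was 63.9, 69.4, 74.1 and 69.1 with DMSO and 67.1, 65.3, 67.1 and 66.8 with Rk2. All Rk2 libraries lay within the range of the DMSO libraries. Its log2 fold change was -0.05 (SE 0.0512), and over all alternatives it lay between -0.14 and -0.02.

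The other 4 targets also overlapped between the groups. SGK1 (chr6:134169246-134318112, minus strand), a kinase that regulates ion channels, had 119, 102, 124 and 113 CPM with DMSO and 93.6, 114, 114 and 91.2 with Rk2, a log2FC of -0.15 (SE 0.0959). Its Rk2 libraries formed a higher and a lower pair. ZFP36 (chr19:39406813-39409412, plus strand), the tristetraprolin protein that destabilizes cytokine mRNAs, had 35.3, 34.6, 36.0 and 34.3 CPM with DMSO and 34.7, 34.1, 34.6 and 31.2 with Rk2. Its log2 fold change was -0.06 (SE 0.0524), with I/R+Rk2 replicate 4 below the rest. ERRFI1 (chr1:8004404-8026308, minus strand), an inhibitor of the EGF receptor, had the highest FPKM of the members, at 431, 471, 456 and 471 CPM with DMSO and 437, 428, 455 and 420 with Rk2. Its log2 fold change was -0.07 (SE 0.0432) in counts and 0.02 in log2(FPKM + 1), so its sign depended on the measure. TAT (chr16:71565660-71577130, minus strand), the tyrosine aminotransferase of liver, had 7.54, 5.65, 6.83 and 7.74 CPM with DMSO and 8.22, 8.69, 7.32 and 7.39 with Rk2. Its log2 fold change was 0.19 (SE 0.118), and the DMSO library with the lowest value, replicate 2, lay below all others. In that library the centred log2 ratio of CPM to FPKM of TAT was also at its lowest, -0.32. Exons of antisense genes overlap TAT and ERRFI1.

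Per transcript length, the members kept a single order in both groups. With DMSO the mean FPKM went from ERRFI1 (150) over DUSP1 (54.7), SGK1 (43.3), ZFP36 (16.5), FKBP5 (15.0), TSC22D3 (6.63), NR3C1 (4.28) and TAT (1.68) to KLF9 (1.09). Of the neighbours in that order, ZFP36 and FKBP5 overlapped between libraries and the others did not. With Rk2 the FPKM means were 152, 62.9, 40.5, 16.2, 14.8, 14.0, 5.10, 1.80 and 1.54 in the same order, and no neighbours overlapped. TSC22D3 had come close to FKBP5 there, at 14.0 ± 0.469 against 14.8 ± 0.235 FPKM (SD, n = 4 each).

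TSC22D3 was then set against the 7 other targets within each library, which removes what a library's scaling shares among them. The mean log2 CPM of the 7 was 5.65 ± 0.0343 with DMSO and 5.72 ± 0.0374 with Rk2 (SD, n = 4 each), a difference of 0.07. It averages values from -0.15 (SGK1) to 0.47 (KLF9). TSC22D3 minus that mean was -1.78 ± 0.0760 log2 units with DMSO and -0.69 ± 0.0318 with Rk2 (SD, n = 4 each). It ranged from -1.84 to -1.68 in the DMSO libraries and from -0.73 to -0.65 in the Rk2 libraries. The groups did not overlap and differed by 1.08 log2 units, close to the 1.15 of TSC22D3 alone. Relative to the average of the other targets, TSC22D3 was higher in every Rk2 library than in any DMSO library. TSC22D3 had been singled out on this same comparison, which favours such a difference, so it is a description only. KLF9 was the only other member called in the same direction.

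**Figure D3:**
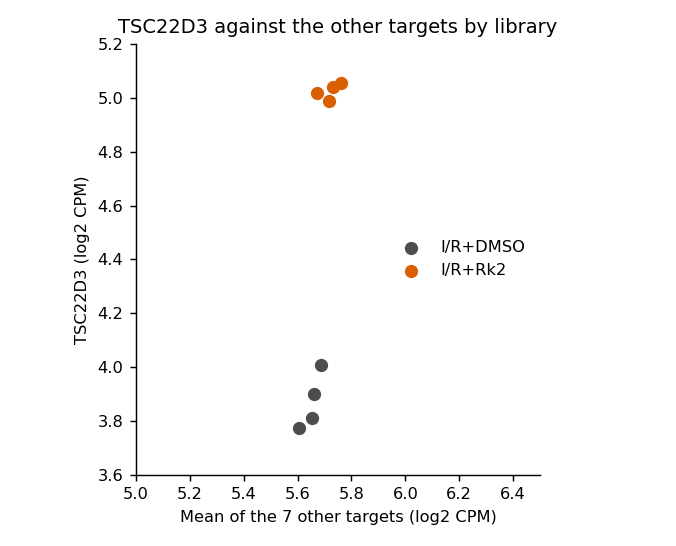
Log2 CPM of TSC22D3 (vertical axis) against the mean log2 CPM of the 7 other targets (horizontal axis, same scale), with a point for each library. The groups are separated along the vertical axis by 1.15 log2 units and along the horizontal axis by 0.07.

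Across the 8 libraries, Pearson's r of log2 CPM with TSC22D3 was 0.93 for KLF9, 0.78 for DUSP1, 0.58 for TAT and 0.09 for NR3C1. It was negative for FKBP5 (-0.39), SGK1 (-0.44), ZFP36 (-0.49) and ERRFI1 (-0.64). With 2 separate groups these values mostly restate the difference between them. Around the group means, where only the variation among replicates is left, r with TSC22D3 was 0.69 for SGK1, 0.56 for DUSP1, 0.38 for ZFP36, 0.30 for FKBP5, 0.27 for TAT, 0.02 for NR3C1, -0.38 for ERRFI1 and -0.54 for KLF9. KLF9 differed between the groups in the same direction as TSC22D3, while its r with TSC22D3 among replicates was negative. With 119 to 293 counts of KLF9 and 280 to 967 of TSC22D3 per library, counting error adds to this variation. Its part in these r was not tested. All points share library depth and scaling, and 8 libraries allow only a description.

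The genes whose log2 CPM was most like that of TSC22D3 over the 8 libraries were in none of the gene lists examined here, which were compiled by hand. Among 12188 genes with a mean of at least 1 CPM, the highest r were those of DNAJB9 (0.998), an endoplasmic reticulum co-chaperone, ASS1 (0.997), an enzyme of the urea cycle, INHBE (0.997), a hepatokine, ASNS (0.997), asparagine synthetase, and CHAC1 (0.997), which degrades glutathione. Their log2 fold changes were 1.38, 0.40, 1.98, 1.00 and 1.75. ASNS, CHAC1 and INHBE are known to be induced in the integrated stress response. Whether any of these genes shares a regulator with TSC22D3 was not tested. Around the group means their r with TSC22D3 lay between 0.74 and 0.88, which the choice of genes by their r over the same libraries favours. In all, 673 genes had an r above 0.9, and KLF9 ranked 435. The genes most like NR3C1 were CSNK1G1 (0.96), ABHD6 (0.94) and TAF8 (0.94), and none of these was called.

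The relatives of TSC22D3 in the TSC22 domain family were compared next. TSC22D2 had 39.5 ± 4.25 CPM with DMSO and 54.5 ± 1.01 with Rk2 (SD, n = 4 each; log2FC 0.47, SE 0.0777, edgeR adjusted p = 0.00647). It was not past the threshold under limma on FPKM, where the adjusted p reached 0.144. TSC22D1 (0.05, adjusted p = 0.732) and TSC22D4 (0.04, adjusted p = 0.90, both edgeR) did not pass. Their signs turned when some libraries were left out. Among all 15 tested relatives of the members, 3 rose (TSC22D2, KLF11 and DUSP5) and 2 fell (DUSP6 and FKBP4), which is 20.0% and 13.3%, against 11.0% and 7.24% of all tested genes, with a median log2 fold change of 0.14. The MAP kinase phosphatases DUSP5 and DUSP6 differed in sign, at 0.33 (adjusted p = 0.00353) and -0.38 (adjusted p = 0.00108, both edgeR), and KLF11 had 0.40 (edgeR adjusted p = 0.00413). Of the receptor genes related to NR3C1, the mineralocorticoid receptor gene NR3C2 had 20 to 56 counts per library and the progesterone receptor gene PGR 0 to 12. NR3C2 had 1.32 ± 0.180 CPM with DMSO and 1.90 ± 0.190 with Rk2 (SD, n = 4 each; log2FC 0.52, edgeR adjusted p = 0.0552).

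A wider list of 37 genes that glucocorticoids are known to induce was examined, of which 32 could be tested. Like the other gene lists here, it was compiled by hand with earlier results of these data known, those of DDIT4 and FOXO3 among them. Nothing is therefore read from the counts called in these lists. Of the 32, 7 rose and 4 fell, which is 21.9% and 12.5%, against 11.0% and 7.24% of all tested genes. The median log2 fold change was 0.06. In 16 of the 32, every library of a group lay above every library of the other, against 28.3% of all tested genes. DDIT4, an inhibitor of mTORC1, was 57.1 ± 2.82 CPM with DMSO and 125 ± 6.19 with Rk2 (SD, n = 4 each; log2FC 1.13, SE 0.0540, edgeR adjusted p = 3.38e-05). KLF15, a transcription factor of amino acid catabolism, increased from 3.79 ± 0.590 to 7.69 ± 0.343 CPM (SD, n = 4 each; log2FC 1.02, edgeR adjusted p = 0.00159). LPIN1, a phosphatidate phosphatase, had a log2FC of 0.65 (edgeR adjusted p = 0.00173) and lost its call in the 3 analyses of FPKM (limma adjusted p up to 0.0803). The other 4 that rose, named after their values were seen, were CEBPB (0.65), IRS2 (0.60), FOXO3 (0.56) and BCL6 (0.41). Several of them, such as DDIT4 and IRS2, are also known to respond to other regulators than the receptor, FOXO factors and ATF4 among them.

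The 4 genes of that list that fell were the metallothionein MT2A, its relative MT1X (named after its values were seen), the endothelin precursor EDN1 and the sodium channel subunit SCNN1A. MT2A decreased from 463 ± 63.6 to 319 ± 20.8 CPM (SD, n = 4 each; log2FC -0.53, edgeR adjusted p = 0.00821), and MT1X had -0.46 (edgeR adjusted p = 0.0128). Reads of metallothioneins may be shared among near-identical copies. EDN1 decreased from 38.3 ± 2.58 to 25.6 ± 1.12 CPM, a log2FC of -0.58 (adjusted p = 0.00133, edgeR, n = 4 each). SCNN1A had only 5 to 30 counts per library, and its log2FC of -1.23 (edgeR adjusted p = 0.0397) lost the threshold in 8 alternatives. The circadian gene PER1, another sensitive receptor target, had 19.8 ± 1.02 and 23.6 ± 2.29 CPM (SD, n = 4 each; log2FC 0.26, adjusted p = 0.0600, edgeR). Its mean FPKM was 7.60 with DMSO and 7.50 with Rk2, so its direction depended on the measure. PCK1, the gluconeogenic carboxykinase, had 9 to 33 counts and a log2FC of 0.92 (edgeR adjusted p = 0.0617), and G6PC was listed at 0 FPKM.

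The machinery around the receptor was examined next. Of 19 tested genes for its chaperones, coregulators and ligand enzymes, 0 rose (against 11.0% of all tested genes) and 2 fell (10.5%, near the 7.24% of all), with a median log2 fold change of 0.11. By unadjusted p below 0.05, 1 was higher and 3 were lower, against 2342 and 2110 of the 12910 tested genes. DESeq2 called 1 higher and 2 lower, against 1687 and 1298 of the 12910. HSP90AB1, the constitutive HSP90, had a log2FC of -0.12 (edgeR adjusted p = 0.0265) and FKBP4, the immunophilin that promotes receptor transport, one of -0.15 (edgeR adjusted p = 0.0398). Neither call held in most leave-one-out analyses: 0 of the 19 genes passed when I/R+DMSO replicate 3 or any of the 4 I/R+Rk2 libraries was left out. The stress-inducible HSP90AA1 had 1554 ± 317 and 2125 ± 404 CPM (SD, n = 4 each; log2FC 0.45, adjusted p = 0.109, edgeR). HSD11B1, the enzyme that regenerates cortisol, was listed at 0 FPKM in all libraries, and HSD11B2, which inactivates cortisol, had 71 to 123 counts.

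Genes that the receptor is known to repress were then examined. Of 15 such inflammatory genes only 8 were expressed enough to be tested, and of these 0 rose and 2 fell (25%), against 11.0% and 7.24% of all tested genes, with a median log2 fold change of -0.02. By unadjusted p below 0.05, 1 was higher and 2 were lower, against 2342 and 2110 of the 12910 tested genes. DESeq2 called 1 higher and 2 lower, against 1687 and 1298 of the 12910. The chemokine CXCL8 decreased from 261 ± 6.03 to 216 ± 7.36 CPM (SD, n = 4 each; log2FC -0.27, edgeR adjusted p = 0.00318). The cytokine LIF had a log2FC of -0.32 (edgeR adjusted p = 0.0462), which lost the threshold in 13 alternatives. ICAM1, an adhesion molecule, had 641 ± 30.2 and 674 ± 27.2 CPM (SD, n = 4 each; adjusted p = 0.317, edgeR). PTGS2, the inducible cyclooxygenase, had 1.71 ± 0.534 and 3.14 ± 0.725 CPM, a log2FC of 0.87 in the opposite direction (adjusted p = 0.0501, edgeR, n = 4 each). IL6, CCL2, CSF2, VCAM1 and MMP1 were listed at 0 FPKM.

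DUSP1, ZFP36 and SGK1 also respond rapidly to serum and stress, so immediate early genes were listed beside them. Of 16 tested, 6 rose (37.5%, against 11.0% of all tested genes) and 3 fell (18.8%, against 7.24%), with a median log2 fold change of 0.16. This list too was compiled with earlier results of these data known, so nothing is read from these counts. ATF3, a stress-induced transcription factor, rose from 34.5 ± 13.9 to 87.9 ± 6.28 CPM (SD, n = 4 each; log2FC 1.35, edgeR adjusted p = 0.0247). Its call was lost without replicate 2, 3 or 4 of I/R+Rk2 and under the replicate block (adjusted p = 0.0503, edgeR). The orphan receptor gene NR4A1 and the antiproliferative gene BTG2 both had 0.76 (adjusted p = 0.00278 and 0.000556, edgeR). The YAP targets CTGF (-0.55, adjusted p = 0.000558) and CYR61 (-0.26, adjusted p = 0.0300) fell, as did IER3 (-0.20, adjusted p = 0.0478, all edgeR). The calls of CYR61 and IER3 were lost in 9 and 13 alternatives. Of the others that rose, named after their values were seen, JUND had 0.33, KLF6 0.28 and JUN 0.24 (edgeR adjusted p = 0.0165, 0.0142 and 0.0171). FOS had 7.24 ± 0.823 and 7.65 ± 1.04 CPM and EGR1 40.7 ± 2.63 and 43.1 ± 2.41 CPM (SD, n = 4 each), and neither passed the threshold.

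**Figure D4:**
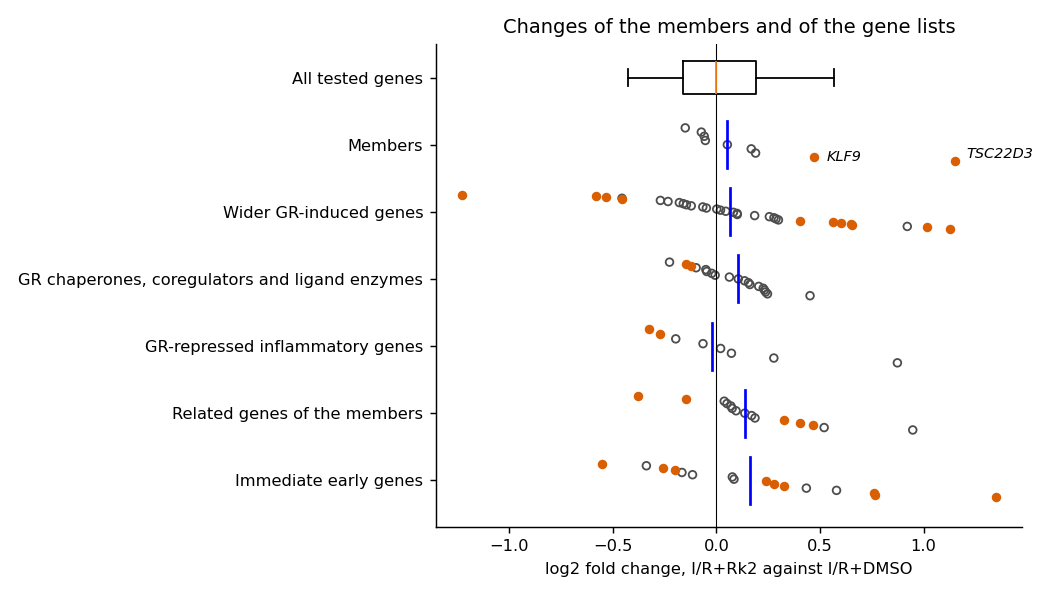
Log2 fold change (I/R+Rk2 against I/R+DMSO) of each tested gene by list, with filled orange points for genes past an adjusted p of 0.05 in edgeR, open points for the others and a blue line at the median of each list. The box for all 12910 tested genes spans the quartiles and its whiskers the central 90%. TSC22D3 at 1.15 and KLF9 at 0.47 lie apart from the other 7 members, which lie between -0.15 and 0.19.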

How the data were processed

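The authors prepared libraries from 250 ng of RNA with an MGIEasy kit and sequenced them on a BGISEQ-500. The submitters' processing notes name FastQC 0.11.5, HISAT2 2.2.1, StringTie 1.3.3 and build hg38, and the annotation and read counter are not given in the sources used here. The authors deposited unnormalized counts of reads for 15767 genes and, for 19799, FPKM (scaled by length and depth). Symbols turned into dates (22 and 27), with 0.111% of counts, were left out. Positions and exon overlaps are from GENCODE v29.

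The members and lists were chosen with earlier results of these data known. Genes reaching 10 counts in 4 or more libraries (12910) were tested with edgeR 4.0.16 (R 4.3.3; TMM, robust quasi-likelihood, condition only, Benjamini-Hochberg). CPM are TMM-normalized, and log2 CPM used a prior count of 1. Alternatives were DESeq2 1.42.0, upper-quartile or total scaling, no filter or 50 counts in every library, limma 3.58.1 on log2(FPKM + 1) or log2(FPKM + 0.1), keeping genes whose FPKM averaged 0.5 or more, or all genes, a replicate block, a loess correction (span 0.5) on the length derived from counts and FPKM, and leaving out each library. Scripts were tested on simulated data. The named genes are all members, the TSC22 relatives, up to 3 called genes per list and direction with the largest changes and groups that do not overlap, and the 5 and 3 genes most like TSC22D3 and NR3C1. Others are named as chosen after their values were seen, or as list members below the threshold. A gene of the lists is not reported here. Chi-square over degrees of freedom between replicates was 16.5 to 30.1 over all genes together, where counting error alone gives about 1 and abundant genes weigh most.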

Additional observations from a re-analysis of the deposited data

Results flagged for a closer look

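In 38 groups of 4 libraries (each member in CPM and FPKM, and TSC22D3 minus the other targets), the highest or lowest library was compared with the others by Dixon's test. About 1 in 20 groups would be flagged by chance. The CPM of DUSP1 in I/R+Rk2 replicate 2 was 165, against 145 to 146 in the other 3 libraries of its group, and its FPKM there was 69.1, against 60.2 to 61.2. The FPKM of TAT in I/R+DMSO replicate 2 was 1.61, against 1.70 to 1.71. The CPM of ZFP36 in I/R+Rk2 replicate 4 was 31.2, against 34.1 to 34.7.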

How the results depend on the processing

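TSC22D3 and KLF9 were the members called in all 18 alternatives, and DUSP1 was added by scaling to library totals and by the length correction. Of the members' 162 log2 fold changes under alternatives, 153 kept their sign and side of the threshold. The count of genes called, 2352 in the chosen analysis, was 1123 and 1106 under limma on log2(FPKM + 1) and log2(FPKM + 0.1), 970 without the FPKM filter, 2985 under DESeq2, and 1293 to 2287 with a library left out (lowest without I/R+Rk2 replicate 4, and 1467 and 1510 without replicates 2 and 3). The chosen scaling gave 1417 higher and 935 lower genes, upper-quartile scaling 1246 and 1306, and library totals 1642 and 683. Across 12745 genes, log2 fold change and derived gene length had a Spearman's rho of 0.391 (genes are not independent replicates). NR3C1 is longer than 91.8% of these genes and KLF9 than 88.0%. TSC22D3 minus the other targets (1.08) was 0.92, 0.98 and 0.92 under the FPKM analyses and 1.15 after the length correction. Chaperone genes called (2) were 0 under library totals, 1 without the count filter and 1 in each FPKM analysis, and 0 to 3 with a library left out. Repressed genes called (2) were 1 without the count filter and in each FPKM analysis, and 1 to 2 with a library left out. Relatives called (5) were 3 in each FPKM analysis and 4 to 6 with a library left out.

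Signs turned only for differences near 0. NR3C1 was -0.12 after the length correction and -0.0085 to 0.177 with a library left out. ERRFI1 was 0.0208 in the FPKM analyses with pseudocount 1, filtered or not, and 0.0209 with 0.1. After the length correction TSC22D1 was -0.0225, CSNK1G1 -0.0631 and TAF8 -0.0198. With pseudocount 1, filtered or not, TSC22D4 was -0.0371, CSNK1G1 -0.0271 and TAF8 -0.106, and with 0.1 they were -0.0442, -0.0262 and -0.121. TAF8 was -0.0240 under upper-quartile scaling. With a library left out, the ranges were -0.0187 to 0.202 for ABHD6, -0.0132 to 0.0298 for TAF8, -0.0208 to 0.105 for TSC22D1 and -0.104 to 0.150 for TSC22D4. The causes were not tested.

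A block for the replicate number gave 1815 genes called, 2 members and 1 repressed gene. The numbers share no stated origin, and same-numbered libraries deviated together with r of only 0.016, -0.0095, 0.038 and 0.085 (1 of 4 libraries in each group was closest to its own number), so they were not treated as pairs. Depth limits KLF9 (119 to 293 counts per library), TAT (120 to 251), SCNN1A, PCK1, NR3C2 and genes below the count filter.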
